A study of Mus musculus with 13 samples.

Results

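Glypicans are heparan sulphate proteoglycans held on the outer cell surface by a lipid anchor, and nephronectin is a secreted protein of the extracellular matrix. The 6 mouse glypican genes (Gpc1, Gpc2, Gpc3, Gpc4, Gpc5 and Gpc6) and the nephronectin gene (Npnt) were followed in single-cell transcriptomes of the medial amygdala, 7 of the 16961 genes in the count table. They were chosen by name, with their levels in the 8 cell classes of the study and in neurons with transcripts of Slc32a1 or Slc17a6 already known. Those levels are therefore given as a description, with no test. Slc32a1 encodes the vesicular transporter of GABA and glycine, and Slc17a6 encodes a vesicular glutamate transporter, so the transcripts separate inhibitory from excitatory neurons. All 7 genes had counts in the table.

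The cells came from naive C57BL/6J mice, with 6 male libraries (aged 8 weeks in male replicates 3 and 5, and 9 weeks in the other male libraries) and 7 female libraries (aged 8 weeks in female replicate 3, and 9 weeks in the other female libraries). The mice lived on a reversed light cycle and were housed alone for a day or more before use, with no transgene and no agent given. Dissociation followed Act-seq, which holds back new transcription in the tube, and the cells were captured in droplets by Drop-seq, where each captured mRNA molecule carries a molecular identifier (UMI) and is counted as 1. The labels do not tie the libraries to separate animals, so every p-value measures the spread between libraries, which may be technical.

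The heparan sulphate chains of glypicans bind growth factors, morphogens of the Wnt, Hedgehog and BMP families and synaptic receptors. Glypicans can leave the membrane when the phospholipase Gpld1 cuts the anchor. Gpc4 and Gpc6 made by mouse astrocytes promote the formation of excitatory synapses with AMPA-type glutamate receptors, and Gpc3 is best known for restraining Hedgehog signalling and growth. Nephronectin is a ligand of the integrin of Itga8 and Itgb1 and was first described in kidney development.

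On the GRCm38 build, with GENCODE M21 gene models, Gpc4 (chrX:52053021-52165252) and Gpc3 (chrX:52272426-52613950) lay on the minus strand of the X chromosome, 107173 bases apart. Gpc5 (chr14:115092215-116525179) and Gpc6 (chr14:116925315-117976544) lay on the plus strand of chromosome 14, 400135 bases apart. Neither pair had a protein-coding gene between its members. Gpc1 (chr1:92831645-92860779) is on the plus strand, and Gpc2 (chr5:138273655-138280005) and Npnt (chr3:132881745-132950291) are on the minus strand. Of the annotated genes that overlap a member, 1 was in the count table, Gm20713 opposite Gpc5. The sources used here do not say whether counting used strand, so reads of overlapping genes cannot be told apart.

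The sequence before the start of Npnt and Gpc3 is shown because the tests of sex below turn on these genes, and that of Gpc2 because Gpc2 had its highest level in microglia, where Npnt was high as well. Each run is the 250 bases before a RefSeq start on GRCm38.p6, on the minus strand, read 5′ to 3′. Npnt spans chr3:132950292-132950541, Gpc3 spans chrX:52613975-52614224 and Gpc2 spans chr5:138279938-138280187. The 3′ part of the Gpc2 run lies inside the GENCODE M21 model of Gpc2, which reaches chr5:138280005. The other runs lie outside the models of their genes. For Npnt 2 RefSeq promoters were matched, and only the first listed is shown. Capitals mark matches, on either strand, to AGGTCA (a nuclear receptor half-site), AGAACA (a steroid receptor half-site), GGAAGT (the core of ETS factor sites) or GGGCGG (a GC box).
Npnt: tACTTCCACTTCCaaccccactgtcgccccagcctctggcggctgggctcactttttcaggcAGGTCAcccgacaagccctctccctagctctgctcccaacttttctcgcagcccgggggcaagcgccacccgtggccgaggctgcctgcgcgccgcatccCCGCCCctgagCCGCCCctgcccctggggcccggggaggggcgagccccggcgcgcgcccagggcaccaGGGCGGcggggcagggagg
Gpc3: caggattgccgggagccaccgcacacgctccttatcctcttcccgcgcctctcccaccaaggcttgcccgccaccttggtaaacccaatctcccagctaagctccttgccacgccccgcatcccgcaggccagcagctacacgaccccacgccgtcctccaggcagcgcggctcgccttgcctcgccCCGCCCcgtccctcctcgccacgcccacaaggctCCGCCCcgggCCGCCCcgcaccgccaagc
Gpc2: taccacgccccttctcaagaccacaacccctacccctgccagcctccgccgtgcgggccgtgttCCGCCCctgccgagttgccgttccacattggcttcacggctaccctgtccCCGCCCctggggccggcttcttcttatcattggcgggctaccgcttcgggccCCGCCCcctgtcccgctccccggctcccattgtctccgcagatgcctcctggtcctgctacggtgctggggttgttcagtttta
The Npnt sequence held 1 match to AGGTCA, 2 to GGAAGT and 3 to GGGCGG, while the Gpc3 and Gpc2 sequences held 3 matches each to GGGCGG and none to the other motifs. No marked match overlapped another in these sequences. Across 32851 RefSeq promoters of the same length, 14% held AGGTCA, 16.1% AGAACA, 19.7% GGAAGT and 32.7% GGGCGG. Promoters of Gpc4 and Gpc5 were matched as well, and Gpc1 and Gpc6 were not. A match describes letters and is not evidence that a factor binds.

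Of 43388 deposited cells, 24527 were kept (11542 male and 12985 female), with 3718151 to 7874074 UMIs per library. Levels are UMIs of a gene summed over the cells of a group in a library, per 1000000 summed UMIs (CPM). In such sums, fewer expressing cells and less RNA per cell cannot be told apart. Xist stood at 0 to 0.651 CPM in male libraries and at 1146.5 to 1327.8 CPM in female libraries, so the labels of sex held in all 13. Each of the 8 author classes had its own markers highest, as in 12 of 12 astrocyte markers detected in astrocytes at 42628 CPM in all. The 19 cell barcodes that recurred in more than 1 library among the kept cells were left in.

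The members fell into different cells. Of the UMIs of Gpc5, 54.7% were in astrocytes and 39.1% in oligodendrocyte precursors. Of the UMIs of Npnt, 55.2% were in microglia and 32.6% in neurons, and of those of Gpc3, 68.5% were in neurons and 25.7% in mural cells, the contractile and supporting cells of vessels. Gpc2 divided between microglia (34.7%), astrocytes (30.7%) and oligodendrocyte precursors (25.2%). Gpc1 was spread over oligodendrocyte precursors (35.0%), neurons (27.1%) and oligodendrocytes (21.4%). These shares also depend on how many cells of a class were captured.

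Gpc5, which in other tissues has been linked to Hedgehog signalling, averaged 268 ± 26.1 CPM in astrocytes (SD, n = 13, here and for the levels that follow), with a lowest library of 227, a median of 278 and a highest of 305 CPM. In oligodendrocyte precursors it averaged 222 ± 20.6 CPM, with 196, 219 and 263 CPM as the lowest, median and highest library. Astrocytes stood above precursors in all 13 libraries, although the ranges overlapped. The next group, Slc32a1 neurons, had 16.5 ± 9.85 CPM, and its range lay wholly below that of the precursors. Along the oligodendrocyte lineage Gpc5 averaged 222 ± 20.6 CPM in precursors, 15.8 ± 8.84 CPM in newly formed oligodendrocytes and 2.66 ± 1.26 CPM in mature oligodendrocytes.

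Gpc6, a synapse-promoting glypican of astrocytes, had its highest mean levels in mural cells, astrocytes and oligodendrocyte precursors. It averaged 61.9 ± 30.5 CPM in mural cells, with libraries of 19.6, 63.1 and 121 CPM (lowest, median, highest). In astrocytes it averaged 59.0 ± 13.2 CPM, with 30.1, 61.5 and 81.5 CPM, and in precursors 52.9 ± 15.3 CPM, with 34.5, 52.9 and 95.4 CPM. These 3 neighbours in the order overlapped, and mural cells stood above astrocytes in 6 of 13 libraries. Slc17a6 neurons followed with 25.1 ± 17.4 CPM, below precursors in 12 of 13 libraries, and Slc32a1 neurons with 13.7 ± 7.75 CPM.

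Gpc4, the other synapse-promoting glypican of astrocytes, was highest in mural cells, at 58.6 ± 23.5 CPM, with 22.0, 59.5 and 90.9 CPM as the lowest, median and highest library. Mural cells stood above Slc17a6 neurons (23.4 ± 16.6 CPM) in 12 of 13 libraries. Slc17a6 neurons, Slc32a1 neurons (16.9 ± 11.3 CPM) and astrocytes (13.6 ± 4.31 CPM) overlapped with each other. Microglia held 1 Gpc4 UMI in 3727 cells.

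Gpc1, a glypican of axons and of oligodendrocyte lineage cells, had its highest mean in Slc17a6 neurons, at 111 ± 45.0 CPM, with 44.3, 115 and 190 CPM as the lowest, median and highest library. Oligodendrocyte precursors followed with 95.5 ± 13.1 CPM, with 82.6, 89.8 and 119 CPM. Both groups overlapped, with neurons above precursors in 8 of 13 libraries. Slc32a1 neurons had 64.9 ± 11.3 CPM, below precursors in all 13 libraries. Newly formed oligodendrocytes averaged 52.4 ± 20.8 CPM and mature oligodendrocytes 48.6 ± 12.4 CPM, with overlap, and in all 13 libraries mature oligodendrocytes stood above astrocytes (26.8 ± 6.31 CPM). In microglia 7 UMIs and in endothelial cells 1 UMI of Gpc1 were counted.

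Gpc2, known from developing neurons, was at most 4.44 ± 5.69 CPM in the neuron sets. Its highest level was in microglia, at 52.8 ± 13 CPM, with 34.5, 50.7 and 79.7 CPM as the lowest, median and highest library. Microglia stood above astrocytes (25.1 ± 4.85 CPM) in all 13 libraries. Astrocytes and oligodendrocyte precursors (23.6 ± 5.52 CPM) did not separate. In GENCODE M21 a second protein-coding entry, Gm43720, shares 6304 bases with Gpc2 on the same strand and had no row of its own in the table. Gpc2 levels are uncertain to that extent.

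Gpc3 was highest in mural cells, at 210 ± 83.1 CPM, with 88.2, 206 and 349 CPM as the lowest, median and highest library. Slc32a1 neurons followed with 152 ± 41.8 CPM, with 69.5, 148 and 207 CPM. Mural cells stood above Slc32a1 neurons in 10 of 13 libraries, with overlapping ranges. Slc32a1 neurons stood above Slc17a6 neurons (40.1 ± 31.1 CPM, with 10.4, 34.2 and 126 CPM) in all 13 libraries. The next group, endothelial cells, had 5.19 ± 5.13 CPM, and astrocytes, microglia and the oligodendrocyte lineage were lower still by mean.

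Over both sexes Npnt had its highest mean in microglia, at 73.2 ± 24.6 CPM, with 37.8, 72.5 and 118 CPM as the lowest, median and highest library. Slc32a1 neurons averaged 57.1 ± 46.1 CPM, with 2.56, 52.6 and 157 CPM, the widest spread of the groups relative to the mean level among those above 10 CPM. Mural cells averaged 46.2 ± 16.9 CPM, with 17.4, 51.1 and 74.3 CPM. These neighbours overlapped, and their order differed by sex. In males microglia averaged 81.0 ± 27.6 CPM, mural cells 58.0 ± 9.79 CPM and Slc32a1 neurons 18.3 ± 11.9 CPM, while in females Slc32a1 neurons averaged 90.3 ± 36.5 CPM, microglia 66.5 ± 21.5 CPM and mural cells 36.1 ± 15.2 CPM. Slc17a6 neurons had 17.7 ± 12.3 CPM, below mural cells in all 13 libraries.

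**Figure D1:**
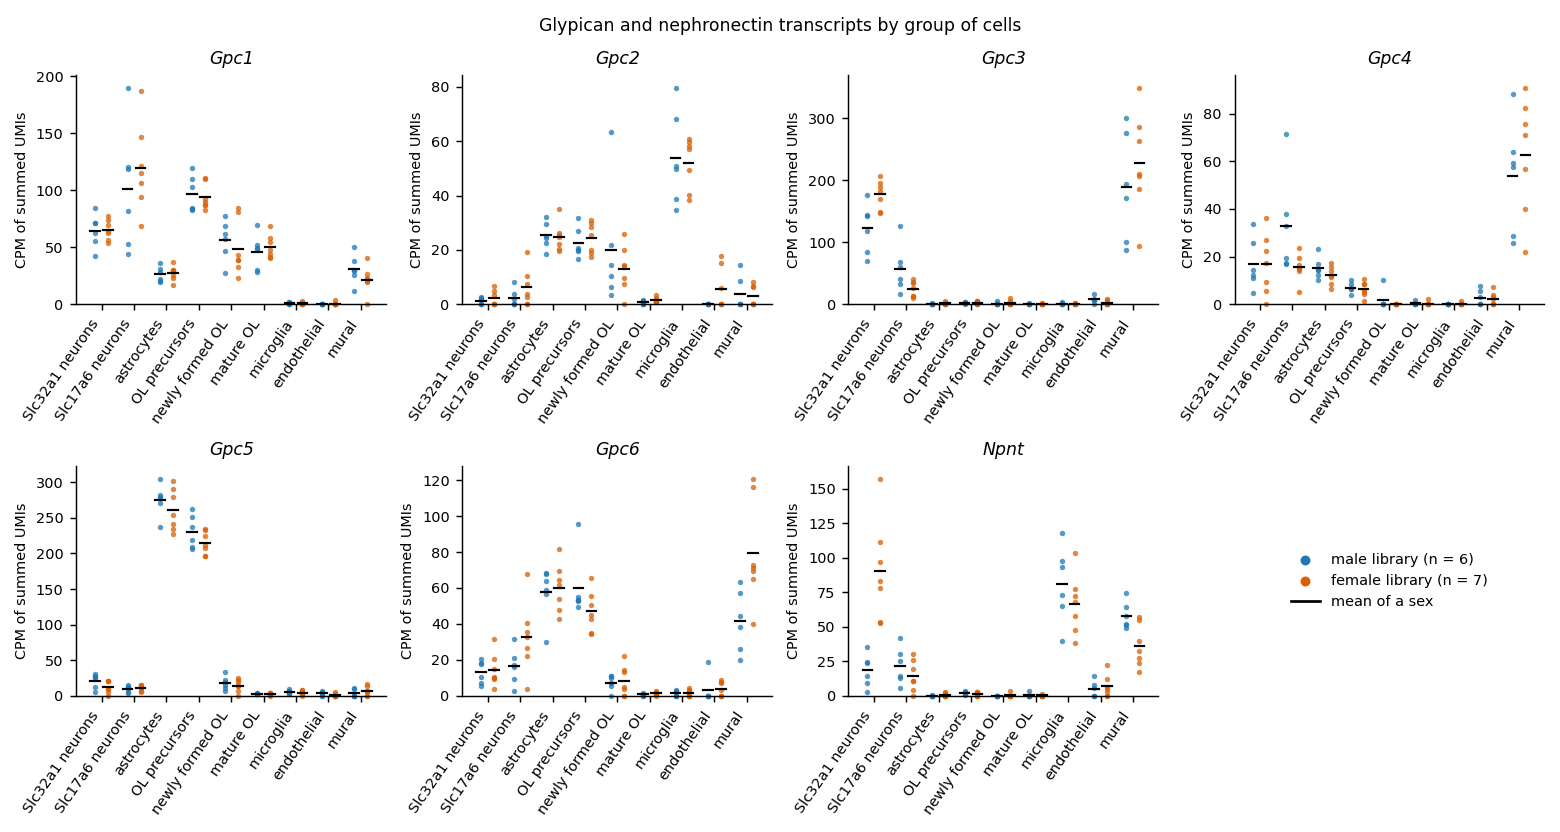
Level of each gene (CPM of summed UMIs, linear axis from 0, scaled per gene) in 9 groups of cells, with 1 point per library, 6 male libraries left and 7 female libraries right of each group, and a bar at the mean of each sex. Gpc5 stood between 227 and 305 CPM in astrocytes, while Npnt in Slc32a1 neurons ran from 2.56 to 157 CPM.

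Endothelial cells were low for every member, with a highest mean of 5.77 ± 6.86 CPM for Npnt. With each cell thinned to 1000 UMIs, at least 1 UMI was found for Npnt in 6.94% of microglia, 3.77% of Slc32a1 neurons and 2.94% of mural cells. Endothelial cells had 0.262% and precursors 0.191%. Oligodendrocytes (0.0540%) and astrocytes (0.0373%) were taken as a background of free RNA, which was not tested. Unthinned, the shares in microglia, Slc32a1 neurons and mural cells were 11.2%, 5.03% and 7.20%, at median depths of 1788, 2275 and 1632 UMIs. Oligodendrocytes had 0.103% and astrocytes 0.0776%, at median depths of 3182 and 1810 UMIs. For Gpc3 the thinned shares were 20.1% of mural cells, 12.3% of Slc32a1 neurons and 3.74% of Slc17a6 neurons. Microglia had 0.0951%, astrocytes 0.186% and endothelial cells 0.436%. For Gpc5 they were 22.3% of astrocytes and 19.9% of precursors, against 0.324% of oligodendrocytes. Thinning left out 572 microglia, 205 Slc32a1 neurons, 186 Slc17a6 neurons and 151 mural cells of under 1000 UMIs, beside 185 oligodendrocytes and 1079 astrocytes.

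Neurons without a UMI of either transporter (938 cells) had 107 ± 53.7 CPM of Gpc5, far above both transporter sets. These neurons also held the 12 astrocyte markers at 14778 CPM in all, against 1010 CPM in Slc32a1 neurons and 975 CPM in Slc17a6 neurons. The part of that astrocyte RNA in the Gpc5 level was not tested, and the neuronal results below use the transporter sets.

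Within mural cells the members divided between contractile and pericyte-type cells. Cells with at least 3 UMIs of the smooth muscle genes Acta2, Tagln and Myh11 (328 cells) were set beside cells with none (393 cells). The splits by other genes were chosen after the levels were seen, so they are described by counts of libraries with no test. Npnt had 77.9 CPM in cells with smooth muscle genes and 1.52 CPM in cells without, 74 against 1 UMIs, higher in 13 of 13 libraries. Gpc4 had 84.2 CPM in cells with these genes and 22.8 CPM in cells without, higher in 10 of 13 libraries. Gpc3 ran the other way, with 123 CPM in cells with and 344 CPM in cells without, lower in 13 of 13 libraries. Gpc6 had 25.3 CPM in cells with and 111 CPM in cells without, also lower in 13 of 13 libraries.

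Cells with a UMI of the pericyte genes Kcnj8, Abcc9 and Atp13a5 (366 cells, against 398 without) gave the mirror picture, in a split of the same mural cells. Gpc3 had 350 CPM in cells with these genes and 144 CPM in cells without, higher in 12 of 13 libraries. Gpc6 had 118 CPM in cells with and 30.0 CPM in cells without, higher in 11 of 13 libraries. Npnt had 1 UMI in the cells with and 74 UMIs in the cells without. The contrast was weaker for Gpc4, with 40.9 CPM in cells with and 70.4 CPM in cells without, lower in 9 of 13 libraries. Cells with smooth muscle genes were deeper, with a median of 2542 UMIs against 1388 UMIs, and CPM does not remove every effect of depth. Mural cells also held the 10 markers of leptomeningeal cells at 4942 CPM in all. Gpc4 had 24.4 CPM in mural cells with at least 2 UMIs of such genes and 86.7 CPM in those with none.

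In microglia, cells with at least 3 UMIs of perivascular macrophage genes (275 cells) had 57.4 CPM of Npnt, against 75.3 CPM in the 2195 cells with none, lower in 9 of 13 libraries. As means over libraries, Npnt had 71.1 ± 75.1 CPM in cells with and 75.1 ± 23.2 CPM in cells with none (SD, n = 13). These means differed by less than their spread. Gpc2 had 32.4 CPM in the cells with macrophage genes and 53.2 CPM in those with none, lower in 11 of 13 libraries. In astrocytes with a Gfap UMI (1477 cells), Gpc5 had 243 CPM, against 288 CPM in the 4968 cells without, lower in 11 of 13 libraries. In precursors with a UMI of the cycling genes Top2a, Mki67, Cdk1 or Ube2c (143 cells), Gpc5 had 169 CPM, against 225 CPM in the other precursors, lower in 9 of 13 libraries.

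Slc32a1 neurons differed among themselves in Npnt. Cells with a UMI of Tac1, which encodes substance P, had 4.49 CPM of Npnt, against 66.7 CPM in the other Slc32a1 neurons, lower in 13 of 13 libraries. Cells with somatostatin (Sst) transcripts had 6.65 CPM, against 60.0 CPM, lower in 12 of 13 libraries. Cells with the transcription factor gene Six3 held 0 Npnt UMIs among 62 cells, which allows up to 3 UMIs, against 231 UMIs in the other 1309 cells. Cells with the opioid peptide gene Penk had 85.2 CPM, against 29.4 CPM in the other cells, higher in 11 of 13 libraries. Most Npnt UMIs therefore sat in Slc32a1 neurons without Tac1, Sst or Six3 transcripts.

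Gpc3 followed other genes. In Slc32a1 neurons with a UMI of the prolactin receptor gene Prlr (364 cells) it had 207 CPM, against 114 CPM in the other cells, higher in 11 of 13 libraries. In Sst cells it had 84.0 CPM, against 164 CPM in the other Slc32a1 neurons, lower in 11 of 13 libraries. In Slc17a6 neurons with a UMI of Slc17a7, a second vesicular glutamate transporter gene, it had 5.30 CPM, against 52.6 CPM in the others, lower in 13 of 13 libraries. Cells with a named gene were also the deeper ones, with a median of 2856 UMIs in Prlr cells, against 2083 UMIs in other Slc32a1 neurons, and 2899 UMIs in Tac1 cells, against 2141 UMIs.

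Gpc1 in Slc17a6 neurons was highest in the 181 cells with a UMI of the transcription factor genes Trp73 or Nhlh2, at 239 CPM, against 67.5 CPM in the other 1074 cells, higher in 12 of 13 libraries. It was lower in cells with Adcyap1, which encodes the peptide PACAP (56.2 CPM, against 140 CPM, lower in 13 of 13 libraries), and in cells with Prlr (41.1 CPM, against 118 CPM, lower in 13 of 13 libraries). Gpc4 in Slc17a6 neurons had 43.2 CPM in Prlr cells, against 20.4 CPM in the others, higher in 10 of 13 libraries. Gpc1 and Gpc4 thus stood on opposite sides of the Prlr split.

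**Figure D2:**
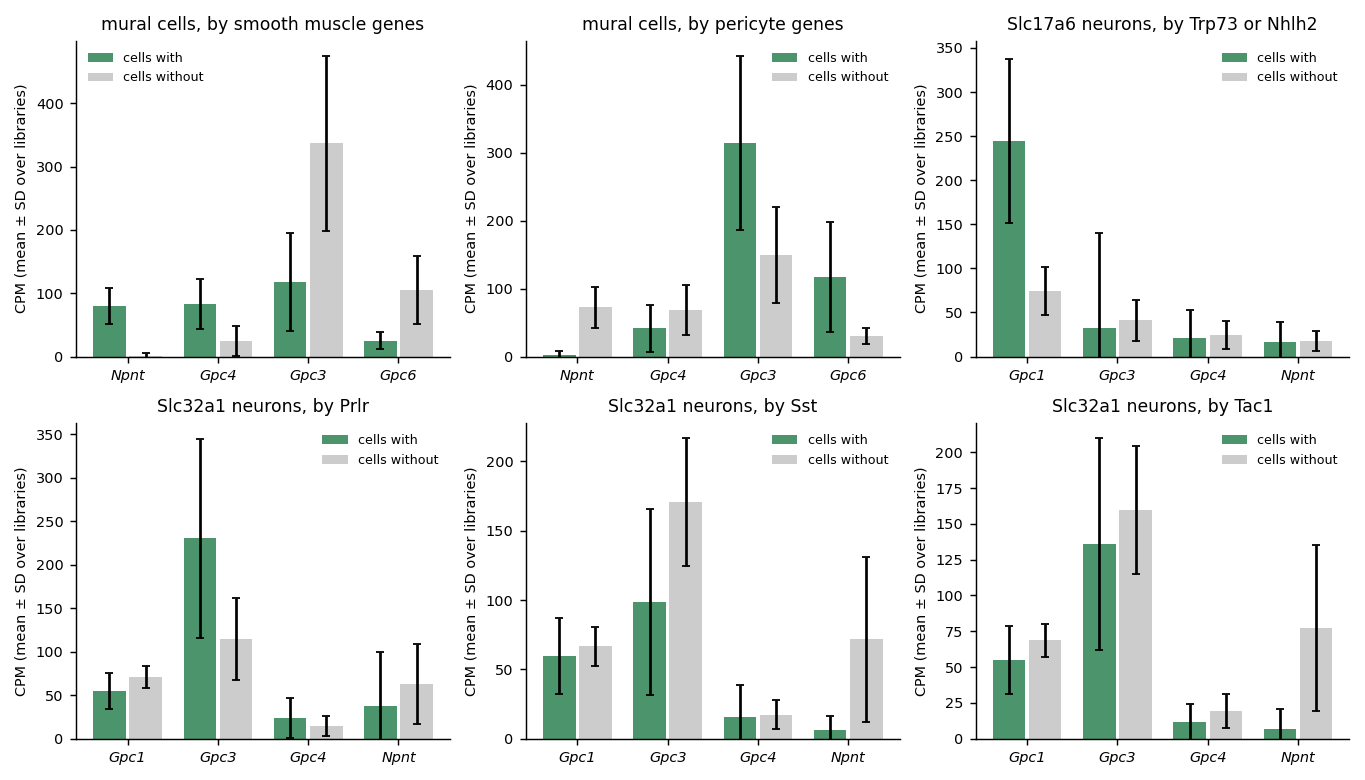
Mean CPM ± SD over libraries in cells with (green, left) and without (grey, right) the genes named above each panel, in mural cells and in Slc17a6 and Slc32a1 neurons. Lower ends of error bars that pass 0 are not drawn. Npnt averaged 79.8 ± 28.6 CPM in mural cells with smooth muscle genes and 1.07 ± 3.85 CPM in those without, and Gpc3 and Gpc6 stood lower in cells with these genes in 13 of 13 libraries.

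The genes found beside Npnt and Gpc3 in Slc32a1 neurons were chosen in the male libraries and then read in the female ones. Cells with an Npnt UMI held more Synpr, which encodes a synaptic vesicle protein, at 5.75 times the level of cells without in males (ratios have 5 CPM added), and 12.2 times in females, higher in 7 of 7 female libraries. For Cbln4, which encodes a secreted synapse-organising protein, the ratio was 3.77 in males and 5.02 in females, higher in 7 of 7. For Cbln2, its relative, it was 5.21 in males and 4.07 in females, higher in 6 of 7. Sdk2, a synaptic adhesion gene, had ratios of 3.81 in males and 2.63 in females (4 of 7), and Zfp40, a zinc-finger gene, 4.05 in males and 1.55 in females (4 of 7). The median depth of cells with Npnt was 2608 UMIs in males and 3202 UMIs in females, beside 2326 and 2229 UMIs for all Slc32a1 neurons.

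For Gpc3, Gfra1, a GDNF receptor gene, had a ratio of 2.08 in males and 2.69 in females, higher in 7 of 7 female libraries. Prlr had 2.12 in males and 1.87 in females, higher in 7 of 7. Olfm3 (2.19 and 1.59, 6 of 7) and the ion channel relative Ano3 (2.11 and 1.61, 5 of 7) ran the same way. Penk did not, with 2.91 in males and 0.881 in females, higher in 3 of 7. In the split of Slc32a1 neurons of both sexes by Penk, Gpc3 had 181 CPM in cells with Penk. In cells without it Gpc3 had 127 CPM, and cells with Penk stood higher in 10 of 13 libraries. Companions named after their values were seen were Nhlh2 for Gpc1 in Slc17a6 neurons (4.94 in males and 3.80 in females, 7 of 7) and the smooth muscle gene Cnn1 for Npnt in mural cells (4.60 in males and 4.42 in females, 6 of 6).

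Whether members met in the same cells was read from thinned cells, as a description. Among thinned astrocytes, Gpc6 was found in 4.92% of cells with Gpc5 and in 5.33% of cells without. Among thinned mural cells, Gpc6 was found in 8.94% of cells with Gpc3 and 5.92% of cells without. Among thinned Slc32a1 neurons, Npnt was found in 5.56% of cells with Gpc3 (8 of 144 cells) and 3.52% of cells without. Gpc4, which neighbours Gpc3 on the X chromosome, was found in 4.86% of Slc32a1 neurons with Gpc3 (7 of 144 cells) and 1.66% of those without. In Slc17a6 neurons it was found in 7.5% of cells with Gpc3 (3 of 40 cells) and 2.72% of those without. In mural cells, where both genes had their highest mean, the shares did not differ. There Gpc4 was found in 5.69% of cells with Gpc3 (7 of 123 cells) and 5.71% of those without.

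Over the 9 groups, the levels of Gpc3 and Gpc4 correlated with r = 0.843 and those of Gpc4 and Gpc6 with r = 0.786 (Pearson, log2 of CPM with 5 added, n = 9 groups that share libraries, as a description). Gpc5 and Gpc6, neighbours on chromosome 14, had r = 0.699. Among all genes with at least 20 CPM in a group, the patterns most like Gpc1 were those of Psip1 (r = 0.977), Kif3a (0.971) and Map7d2 (0.969), and most like Gpc2 those of Ttc9c (0.977), Lemd2 (0.961) and Memo1 (0.950). For Gpc3 they were Pcdh18 (0.982), Dgkg (0.980) and Arhgap6 (0.978), and for Gpc4 Amigo2 (0.987), Rbm24 (0.980) and Nr2f2 (0.970). For Gpc5 they were 2810459M11Rik (0.982), Ccdc37 (0.978) and Ephb3 (0.976), and for Gpc6 Fuz (0.958), Dzip1l (0.956) and Acadsb (0.956). For Npnt they were Plxdc1 (0.967), Lpl (0.966) and Rtn4rl1 (0.951).

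The genes that build, trim and release glypicans were read from lists. Of 60 listed genes 57 were in the table. Gpld1, which cuts the anchor, had its highest level in astrocytes, at 871 CPM (pooled libraries, as for the other list genes), and next in precursors, at 228 CPM, the same pair of classes as Gpc5. Notum, which was in the list of release genes, had 177 CPM in endothelial cells and at most 5.96 CPM elsewhere. Sulf2, a sulphatase that edits finished chains, had 921 CPM in precursors, 742 CPM in newly formed and 132 CPM in mature oligodendrocytes. Hs6st2, a 6-O-sulphotransferase, had 572 CPM in Slc32a1 neurons and 452 CPM in Slc17a6 neurons, with at most 68.6 CPM elsewhere.

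Among partners of glypicans at synapses, the phosphatase gene Ptprd had 1415 CPM in mature oligodendrocytes and 410 CPM in Slc17a6 neurons. The postsynaptic genes Lrrtm3 and Lrrtm4 had 200 and 105 CPM in precursors, 169 and 82.4 CPM in Slc32a1 neurons, and 179 and 94.0 CPM in Slc17a6 neurons. The receptor gene Gpr158, a binding partner of Gpc4, had 144 CPM in Slc17a6 neurons and 123 CPM in Slc32a1 neurons. Of other heparan sulphate proteoglycans, Sdc4 had 1058 CPM in astrocytes, Sdc3 384 CPM in precursors and Sdc2 819 CPM in mural cells. Itga8, the specific subunit of the nephronectin receptor, had 162 CPM in mural cells, 30.0 CPM in precursors and at most 4.27 CPM elsewhere, and its partner Itgb1 had 2243 CPM in mural cells. The matrix gene Frem3 had 55.5 CPM in Slc32a1 neurons and 5.44 CPM in Slc17a6 neurons.

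Males and females were compared within each class on counts summed per library, with the edgeR quasi-likelihood F test and Benjamini-Hochberg adjustment over all genes tested in that class, where a call is an adjusted p under 0.05. Levels in these tests are CPM after TMM scaling, differences are log2 male minus female, and 20 tests of members passed the filter on low counts over the 8 classes. None of the 20 was called, 2 had an unadjusted p under 0.05, and DESeq2 called 1, Npnt in all neurons. Members called, beside the share of all genes called, were 0 of 5 tested in astrocytes (1.16%), 0 of 1 in oligodendrocytes (0.261%), 0 of 4 in precursors (0.131%), 0 of 1 in newly formed oligodendrocytes (0.0889%), 0 of 2 in microglia (0.349%), 0 of 1 in mural cells (0.123%) and 0 of 6 in neurons (0.0623%). No member passed the filter in endothelial cells (1.28%). Members that failed the filter were not tested there. Npnt in all neurons averaged 18.6 ± 8.75 CPM in males and 45.0 ± 16.0 CPM in females, a difference of -1.27 ± 0.27 that did not pass (edgeR adjusted p = 0.111) and passed with DESeq2 (adjusted p = 0.00883). Gpc6 in all neurons averaged 16.3 ± 6.02 CPM in males and 27.4 ± 12.5 CPM in females (-0.73 ± 0.31, edgeR adjusted p = 0.771).

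In glia no difference of a member passed the test. Gpc5 in astrocytes had 235, 277 and 312 CPM as the lowest, median and highest male library, and 232, 267 and 306 CPM in females. The groups overlapped, with a log2 difference of 0.06 ± 0.08 (SE, n = 6 male and 7 female libraries; edgeR adjusted p = 0.893). In precursors Gpc5 averaged 233 ± 22.6 CPM in males and 218 ± 17.3 CPM in females, a difference of 0.11 ± 0.08 (edgeR adjusted p = 0.921). Gpc6 in precursors averaged 60.5 ± 17.4 CPM in males and 47.7 ± 11.3 CPM in females (0.26 ± 0.15, edgeR adjusted p = 0.878), and Gpc4 in astrocytes averaged 15.3 ± 4.70 CPM in males and 12.5 ± 4.05 CPM in females (0.35 ± 0.25, edgeR adjusted p = 0.685). Npnt in microglia had 41.8, 85.9 and 121 CPM in males (lowest, median, highest) and 39.5, 70.8 and 109 CPM in females. The ranges overlapped, with a difference of 0.24 ± 0.21 (edgeR adjusted p = 0.912). Gpc6, Gpc4 and Npnt in mural cells failed the filter and were not tested, with Gpc6 libraries at 19.6 to 63.1 CPM in males and 39.9 to 121 CPM in females, and Npnt libraries at 49.0 to 74.3 CPM in males and 17.4 to 56.7 CPM in females, on 2 to 17 UMIs per library and gene. Gpc3 in mural cells averaged 239 ± 108 CPM in males and 289 ± 102 CPM in females, a difference of -0.25 ± 0.26 (edgeR adjusted p = 0.970).

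**Figure D3:**
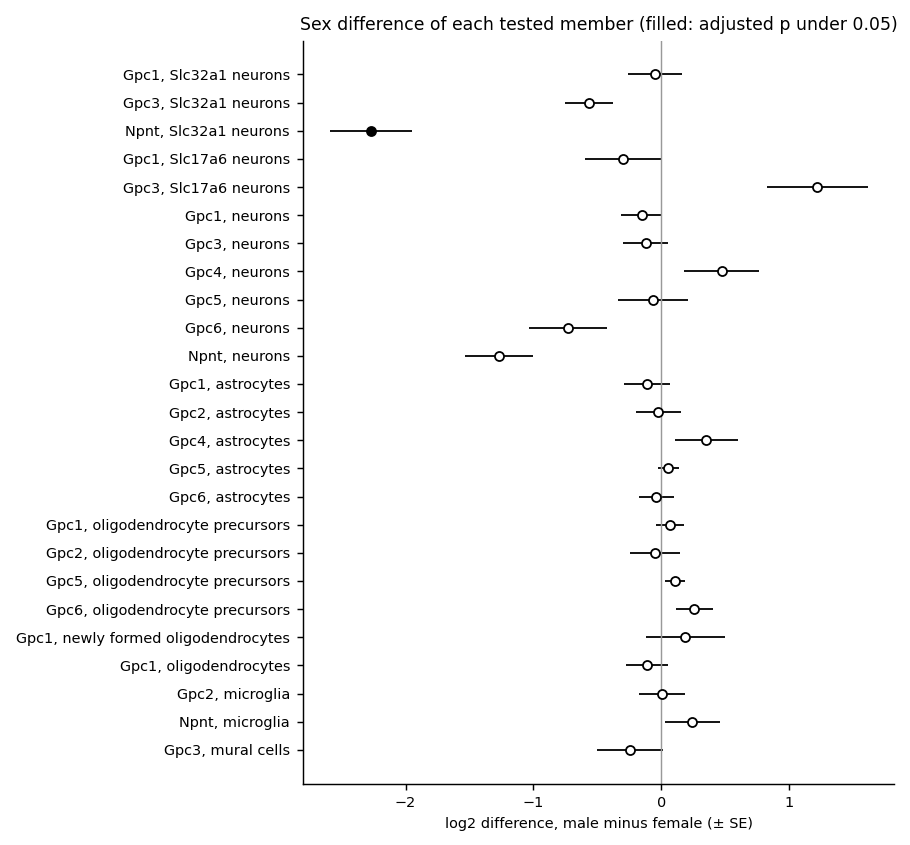
Log2 difference, male minus female, of every member that passed the filter on low counts in a group of cells, with its standard error (6 male and 7 female libraries). The filled point, Npnt in Slc32a1 neurons at -2.27, is the only call in these 25 tests.

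In Slc32a1 neurons (742 male and 629 female cells) Npnt was lower in males. Its UMIs numbered 6, 1, 13, 12, 5 and 16 in male replicates 1 to 6, and 33, 34, 15, 15, 32, 26 and 23 in female replicates 1 to 7. As scaled levels these were 2.75, 19.0 and 37.3 CPM (lowest, median, highest) in males and 55.3, 90.2 and 178 CPM in females, and the sexes did not overlap. In female replicate 5, the highest female library, 1 cell held 14 of the 32 Npnt UMIs, and the unscaled level was 157 CPM with that cell and 89.8 CPM without it. In male replicate 6, the highest male library, 1 cell held 8 of the 16 UMIs, and the level was 35.5 CPM with it and 18.0 CPM without it. Npnt fell by 2.27 ± 0.32 on the log2 scale (19.2 ± 12.6 CPM in males and 98.8 ± 42.2 CPM in females, SD; edgeR adjusted p = 6.44e-05). Of the 3 members tested there 1 was called, and it was lower in males, while 0.0892% of all genes were called and 0.0446% were called lower. Gpc1 did not pass (-0.05 ± 0.21, edgeR adjusted p = 0.966).

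By counts pooled over libraries, fewer male cells held Npnt, with fewer UMIs per such cell. The UMIs per such cell were not tested. In males 28 of 742 Slc32a1 neurons held Npnt, with 53 UMIs or 1.89 per such cell, and in females 41 of 629 cells did, with 178 UMIs or 4.34 per such cell. Cells with at least 3 Npnt UMIs numbered 7 in males, with 28 UMIs, and 21 in females, with 150 UMIs. Thinned to 1000 UMIs, 2.40% ± 1.66 of male and 5.70% ± 1.95 of female cells held Npnt (SD, n = 6 and 7 libraries), against 0.0540% of oligodendrocytes. Over the 1716 ways to assign sex, the exact permutation test (two-sided) gave p = 0.00874, adjusted to 0.110 over the 7 members and both neuron sets, so the share of cells did not pass. Unthinned, the shares were 4.10% ± 2.24 in males and 6.60% ± 1.97 in females, at median depths of 2326 UMIs in males and 2229 UMIs in females.

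Many of the Npnt UMIs of Slc32a1 neurons sat in cells rich in Synpr, the leading companion found above (a split made after its values were seen, so with no test). Cells with at least 3 Synpr UMIs made up 9.18% ± 3.85 of male and 9.63% ± 4.31 of female Slc32a1 neurons (SD, n = 6 and 7 libraries). They held 26 of the 53 male and 139 of the 178 female Npnt UMIs. Per library the Synpr-rich cells (5 to 15 in males, 3 to 13 in females) held 1 to 8 Npnt UMIs in males and 9 to 30 in females, not scaled for depth. These UMIs are part of those tested above, so the split gives no separate support for the sex difference. Npnt was found in 12.5% of the male and 38.3% of the female Synpr-rich cells, with levels of 66.2 CPM in the male cells and 607 CPM in the female cells. These cells had a mean of 6.11 Synpr UMIs in males and 7.58 in females, at median depths of 3982 UMIs in males and 3254 UMIs in females. Outside these cells Npnt was at 11.0 CPM among male and 21.1 CPM among female Slc32a1 neurons.

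Synpr itself averaged 185 ± 61.5 CPM in male and 301 ± 173 CPM in female Slc32a1 neurons (-0.70 ± 0.37, edgeR adjusted p = 0.649), and Cbln4 averaged 141 ± 52.5 CPM in males and 160 ± 51.7 CPM in females (-0.19 ± 0.23, edgeR adjusted p = 0.840). Cbln2 averaged 102 ± 58.4 CPM in males and 221 ± 193 CPM in females (-1.09 ± 0.60, edgeR adjusted p = 0.649). Sdk2 averaged 41.9 ± 16.2 CPM in males and 65.8 ± 12.7 CPM in females (-0.66 ± 0.24, edgeR adjusted p = 0.521), and Zfp40 had a difference of -0.22 ± 0.24 (edgeR adjusted p = 0.826). All 5 companions of Npnt thus had a lower mean in males, and none passed the test. Cbln4 and Zfp40 differed by less than their standard errors. The 5 genes were chosen in the same cells with Npnt, so their signs are not separate observations. Since Npnt was also a transcript of microglia and of mural cells, their markers were read in the same sums. The 12 microglial markers came to 101 CPM in all in males (62.1 to 164 CPM) and 187 CPM in females (84.2 to 508 CPM), with overlap, and the 12 mural markers to 29.1 CPM in males (17.8 to 57.9 CPM) and 25.1 CPM in females (5.69 to 63.8 CPM). Each microglial marker had UMIs in these neurons, while 1 mural marker, Ndufa4l2, was at 0. Their part in the Npnt difference was not tested.

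Gpc3 in Slc32a1 neurons averaged 130 ± 46.2 CPM in males, with 69.5, 139 and 190 CPM as the lowest, median and highest library, and 192 ± 24.0 CPM in females, with 160, 195 and 228 CPM. The ranges overlapped. The difference was -0.57 ± 0.19 and did not pass (edgeR adjusted p = 0.489). Thinned, 10.3% ± 2.2 of male and 14.5% ± 2.8 of female cells held Gpc3 (exact permutation test, two-sided, p = 0.0157, adjusted p = 0.110).

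In Slc17a6 neurons (640 male and 615 female cells) Gpc3 averaged 62.9 ± 42.2 CPM in males, with 19.1, 53.6 and 139 CPM as the lowest, median and highest library, and 27.8 ± 14.0 CPM in females, with 11.4, 30.3 and 46.7 CPM. The ranges overlapped. The difference of 1.22 ± 0.39 did not pass (edgeR adjusted p = 0.998), and Gpc1 had -0.30 ± 0.29 (edgeR adjusted p = 0.998). Of the 2 members tested there 0 were called (1 at an unadjusted p under 0.05, and 0 with DESeq2), while 0.0832% of all genes were. In male replicate 2 a single neuron of 16931 UMIs held 38 of the library's 60 Gpc3 UMIs, and the library's unscaled level was 126 CPM with that cell and 47.9 CPM without it.

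The sex differences of both neuron sets were compared in a single model with the library as a block. The term is the male minus female difference in Slc32a1 neurons minus that in Slc17a6 neurons. For Gpc3 it was -1.73 ± 0.33 (edgeR adjusted p = 0.0256), the only call among 7388 genes (0.0135%) and 1 of 4 members tested. For Npnt it was -2.78 ± 0.55 and did not pass (edgeR adjusted p = 0.0632). The Gpc3 call was lost with DESeq2 (adjusted p = 0.160), with doublets kept (edgeR adjusted p = 0.404), with age as a covariate (edgeR adjusted p = 0.0513), with only mice aged 9 weeks (edgeR adjusted p = 0.291) and in 8 of 13 fits that left out a library, those without male replicates 1, 2, 3 or 5 or female replicates 1, 2, 4 or 7 (edgeR adjusted p from 0.0532 to 0.151). Without the 58 Slc32a1 and 70 Slc17a6 neurons of over 10000 UMIs, a setting chosen after seeing the data, the Gpc3 term was -1.11 ± 0.34 (edgeR adjusted p = 0.311), and Npnt in Slc32a1 neurons was -2.02 ± 0.34 (edgeR adjusted p = 0.00299).

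Gpc4 failed the filter on low counts in both neuron sets and was not tested there. In Slc17a6 neurons its UMIs numbered 12, 34, 11, 12, 9 and 5 in male replicates 1 to 6, 83 in all, and 6, 6, 4, 4, 1, 7 and 5 in female replicates 1 to 7, 33 in all. Unthinned, 8.88% ± 3.34 of male and 4.90% ± 1.69 of female cells held it, and thinned to 1000 UMIs 2.77% ± 1.39 of male and 2.76% ± 2.30 of female cells did. The thinned shares differed by less than the spread between libraries.

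**Figure D4:**
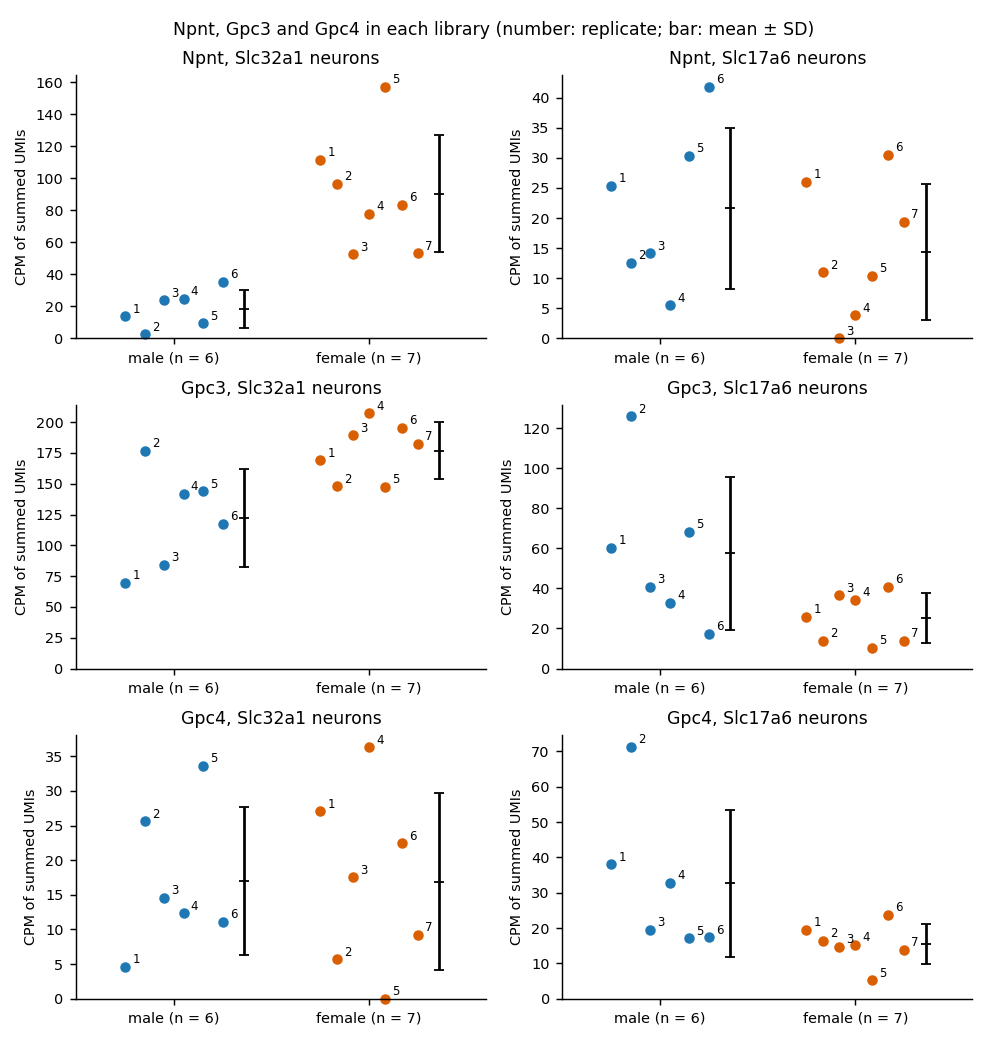
CPM of summed UMIs of Npnt, Gpc3 and Gpc4 in each library of Slc32a1 neurons (left panels) and Slc17a6 neurons (right panels), males left of females, numbered by replicate, with mean ± SD. The 6 male libraries lie below all 7 female libraries for Npnt in Slc32a1 neurons, and male replicate 2 stands highest for Gpc3 and Gpc4 in Slc17a6 neurons.

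Among the listed genes of chain synthesis, release and binding, 3 of 252 tests over the 8 classes and both neuron sets were called (30 at an unadjusted p under 0.05), all higher in males. Of all genes, the share called in these groups ran from 0.0623% in neurons to 1.28% in endothelial cells. At an unadjusted p under 0.05, the lowest share was 175 of 4497 genes in newly formed oligodendrocytes. The highest was 572 of 5169 genes in endothelial cells. Gpld1 in precursors averaged 268 ± 20.3 CPM in males and 197 ± 20.2 CPM in females, with male libraries from 242 to 290 CPM above female libraries from 176 to 235 CPM. It rose by 0.43 ± 0.08 on the log2 scale (edgeR adjusted p = 0.00161). Extl1, an exostosin-like glycosyltransferase gene, averaged 28.9 ± 8.51 CPM in male and 13.1 ± 4.27 CPM in female astrocytes and rose by 1.10 ± 0.22 (edgeR adjusted p = 0.00216). Gria2, the gene of an AMPA receptor subunit, averaged 1993 ± 235 CPM in male and 1468 ± 160 CPM in female astrocytes and rose by 0.44 ± 0.08 (edgeR adjusted p = 0.000308). These were 1 of 3 release genes tested in precursors, 1 of 11 chain assembly genes tested in astrocytes and 1 of 5 synaptic partner genes tested in astrocytes. In astrocytes 2 release genes were tested and 0 called, with a median log2 difference of -0.18. In precursors 11 chain assembly genes were tested and 0 called. Of all genes, 0.0845% were called higher in male precursors and 0.511% in male astrocytes. The median log2 difference was 0.30 for the release genes, beside -0.0017 for all genes in precursors. It was 0.0033 for the chain assembly genes and 0.14 for the synaptic partner genes, beside 0.0027 for all genes in astrocytes.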

How the data were processed

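The submitters' processing notes name STAR 2.5.0a, bcl2fastq 2.17.1.14 and the mm10 build. The sources used here do not give how UMIs were collapsed or cells chosen. The authors deposited raw UMI counts per gene and cell, with cell names that carry the library and the cell class. The 7 genes, the gene lists and the tests were chosen with earlier results of these data known.

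Cells under 500 detected genes were dropped, as were 281 doublets (1.13%) that Scrublet (scanpy 1.11.5) called library by library. Neurons with Slc32a1 and no Slc17a6 UMI (1371 cells), or the reverse (1255 cells), formed the neuron sets, and the 51 cells with both were left out. Counts were summed per library, at 192595 to 564897 UMIs per library in the neuron sets, over at least 10 cells. Intervals and limits cover counting error only. The sexes were compared with edgeR 4.0.16 in R 4.3.3 (TMM, filterByExpr, robust quasi-likelihood F test, two-sided), p-values adjusted by Benjamini-Hochberg over every gene tested, and a threshold of 0.05. On counts simulated with a spread between libraries set by expression level alone, the test recovered 86% of 2-fold and 100% of 4-fold changes in Slc32a1 neurons. Of its calls there 5.58% were false. Spread particular to a gene and single cells rich in a gene were not simulated, so these shares do not give the power in the real sums. Shares of cells used an exact permutation test, two-sided. Alternatives were DESeq2 1.42.0, RLE scaling, no filter on low counts, other cell filters, age, single libraries left out, the replicate number as a block and other rules for the neuron sets. Named genes were the 7 members, listed genes past the threshold, the 3 genes most like each member and 5 companions each of Gpc3 and Npnt. Splits by other genes and further companions were named after their values were seen.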

Additional observations from a re-analysis of the deposited data

Results flagged for a closer look

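In groups of 6 or 7 libraries of the same sex, 64 checks for a library far from the others found 3, where chance gives about 5% of checks. Gpc2 in newly formed oligodendrocytes of male replicate 5 stood at 63.2 CPM on 9 UMIs, while the next male library had 21.7 CPM. Gpc6 in astrocytes of male replicate 3 stood at 30.1 CPM, below the next male library at 56.6 CPM. In oligodendrocyte precursors of the same male replicate 3, Gpc6 stood at 95.4 CPM, above the next male library at 55.2 CPM.

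The sex difference of Gpc3 differed between the neuron sets, by -1.73 on the log2 scale (Slc32a1 minus Slc17a6 neurons, of male minus female), by a test of the difference itself (edgeR adjusted p = 0.0256). The call was lost with DESeq2, with doublets kept, with age as a covariate, with only mice aged 9 weeks, in 8 of 13 fits that left out a library and, without cells of over 10000 UMIs, at -1.11 (edgeR adjusted p = 0.311).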

How the results depend on the processing

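The fall of Npnt in male Slc32a1 neurons was called in all 13 fits that left out a library (-2.54 to -2.08, edgeR adjusted p at most 0.000942) and under all 12 other settings (-2.40 to -2.01, adjusted p at most 0.00299), the replicate block included. The count of members called over the classes, 0, became 1 (Npnt in all neurons) with DESeq2, with no filter on low counts, with only mice aged 9 weeks and under the replicate block, and was 0 to 1 without single libraries (1 without male replicate 6 or female replicate 3). Over the neuron sets the count of 1 became 2 with no filter, which adds Gpc3 in Slc17a6 neurons (adjusted p = 0.0106). For the difference between the neuron sets the count of 1 became 0 with DESeq2, with age as a covariate, with only mice aged 9 weeks and without cells of over 10000 UMIs, and 2 with no filter, all deposited cells, at least 800 genes per cell or at least 2 transporter UMIs (0 to 2 without single libraries). Its Gpc3 term missed the threshold at -1.72 with DESeq2, -1.54 with doublets kept, -1.69 with age, -1.79 with only mice aged 9 weeks and -1.11 without cells of over 10000 UMIs (-1.91 to -1.55 without single libraries). With doublets kept the count stayed at 1, as Npnt passed (adjusted p = 0.0404). The 0 of 14 shares of cells that passed became 1 without female replicate 2 (0 to 1 without single libraries). The causes were not tested.

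Same-numbered male and female libraries correlated at -0.184 to 0.182 in their deviations from the mean of their sex. Of 60 pairs 14 were over 0.1, and no group had all its pairs over it. Pairs of unlike number were not correlated, so these values cannot tell whether libraries of the same number share a batch. Apart from Npnt in all neurons (-1.33, edgeR adjusted p = 0.0109), the replicate block changed no call of a member.

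Signs turned only in members that failed the test in every setting concerned. Gpc2 in astrocytes was 0.0614 with all deposited cells (-0.0826 to 0.10 without single libraries). Gpc6 in astrocytes was 0.0017 with age, 0.0413 at 9 weeks and 0.0201 under the block (-0.12 to 0.0499 without single libraries). Without single libraries Gpc1 in precursors ran from -0.0087 to 0.12 and Gpc2 there from -0.19 to 0.0306. Gpc2 in microglia was -0.0019 with no filter, -0.0828 with all deposited cells, -0.0159 with doublets kept, -0.0766 with age and -0.21 at 9 weeks (-0.15 to 0.10 without single libraries). At 9 weeks Gpc1 in neurons was 0.0223, Gpc5 in neurons 0.0398 (-0.18 to 0.13 without single libraries), Gpc1 in Slc17a6 neurons 0.0645 and the Gpc1 difference between the sets -0.0819. Gpc1 in Slc32a1 neurons was 0.0086 with age, 0.0036 at 9 weeks and 0.0560 without cells of over 10000 UMIs (-0.15 to 0.0647 without single libraries).

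Counts of all genes called moved by over 1.5 times with no filter in astrocytes (181 against 113), oligodendrocytes (86 against 22), newly formed oligodendrocytes (9 against 4), microglia (41 against 26), mural cells (17 against 4), Slc32a1 neurons (12 against 6), Slc17a6 neurons (16 against 5) and the difference between the sets (7 against 1). With only mice aged 9 weeks they moved so in precursors (24 against 14) and endothelial cells (105 against 66, and 43 under the block), in oligodendrocytes with DESeq2 (37) and under the block (45), and in mural cells under the block (11). Without single libraries they ran from 64 to 205 in astrocytes, 15 to 103 in oligodendrocytes, 10 to 26 in precursors, 18 to 47 in microglia, 36 to 136 in endothelial cells, 3 to 14 in mural cells, 6 to 10 in Slc32a1 neurons and 0 to 2 between the sets. The level of each member in its highest group moved by less than 1 SD under every alternative. Levels in the other groups were not checked in this way. Depth limited the tests of members: 25 member tests in classes and sets passed the filter on low counts, and members below it were not tested.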

Other observations

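Gpc3 and Gpc4 in Slc17a6 neurons were also read beside Calb1, which encodes a calcium-binding protein, and Bdnf, which encodes a growth factor, in splits made after the values were seen and therefore without a test. Cells with a Calb1 UMI made up 17.6% ± 3.57 of male and 12.4% ± 4.02 of female Slc17a6 neurons (SD, n = 6 and 7 libraries). Gpc3 had 106 CPM in male Calb1 cells and 32.7 CPM in female ones, beside 38.1 CPM in the other male cells and 22.9 CPM in the other female cells. Gpc4 had 44.3 CPM in male Calb1 cells and 30.2 CPM in female ones, beside 26.8 CPM in the other male cells and 12.6 CPM in the other female cells. Cells with a Bdnf UMI made up 39.6% ± 7.79 of male and 29.3% ± 5.29 of female Slc17a6 neurons. Gpc4 had 49.1 CPM in male Bdnf cells and 18.0 CPM in female ones, beside 15.4 CPM in male cells without Bdnf and 14.7 CPM in female cells without it. The deep neuron of male replicate 2 is part of the male values of Gpc3.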
